A study of Bos taurus with 12 samples.

Results

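The 43 genes described here act in fatty acid metabolism and lipid storage. They were taken from the bovine gene table by symbol, from a list drawn up by function, and all 43 were found among its 32637 genes. By role they are 9 genes of fatty acid synthesis, elongation and desaturation, 4 of fatty acid activation, 3 of the carnitine shuttle, 9 of beta-oxidation, 3 of uptake and binding, 4 of triacylglycerol synthesis, 2 of the lipid droplet coat, 3 of lipolysis, 4 transcription factors and 2 apolipoproteins.

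The libraries came from cattle (Bos taurus) expanded blastocysts produced in vitro, in 6 female and 5 male pools, and the question was which genes differ between the sexes. Embryos were fertilised in vitro from slaughterhouse oocytes, with 2 bulls used in rotation, and were sexed by PCR on a cut piece. Per the study's methods, expanded blastocysts were collected on 2 successive days of culture. The sample titles and library names do not give the day of a pool. Each library held 2 cut embryos of 1 sex, so a value belongs to a pool and not to an embryo, and no treatment separated the groups. Nothing in the labels says whether the pools came from separate collections, so p-values measure the spread between these pools.

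Fatty acids enter a cell through carriers such as CD36, are held by fatty acid binding proteins and are activated to acyl-CoA by the ACSL enzymes. Activated fatty acids are either burned in mitochondria after passing the carnitine shuttle, or joined to glycerol and stored as triacylglycerol in droplets coated by perilipins, from which lipases release them again. Bovine oocytes and embryos are known for their large store of lipid droplets.

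Libraries held between 6664112 and 21392764 counts assigned to genes, and 3 counts corresponded to between 0.145 and 0.413 CPM. The CPM, a gene's share of its library's counts as counts per 1e6, were scaled by edgeR's TMM factors, which set libraries on a common scale, and carry no correction for transcript length, so levels are compared between pools and not between genes. The library Male 5 stood apart from the rest: it was the deepest and yet had the fewest genes with a count, 14937 against 16985 to 18550 in the other 10. Its summed trophectoderm markers (10 genes) came to 36145 CPM against 7879 to 23154 in the others, and KRT8 alone gave 20142 of that sum. Without KRT8 the sum was 16002 CPM in Male 5 against 5594 to 15840 in the others. Of the 10 markers 4 (CDX2, KRT8, KRT18 and DAB2) were highest in Male 5. Its summed hypoblast markers (7 genes) were the lowest, at 208 CPM against 228 to 621. Inner cell mass markers (6 of 7 in the table) summed to between 560 and 980 CPM in females and between 792 and 1076 in males. Each of these marker sums was thus above 0 in every pool. In the inner cell mass sum POU5F1 had 287 to 737 CPM, highest in Male 5, and NANOG fell to 9.31 CPM in Female 5. Cumulus cell markers (7 genes) summed to between 5.38 and 32.7 CPM, with AMH and FOXL2 at or under 3 counts in every library. The other cumulus markers were detected, FSHR with 58 to 359 counts per library and CYP19A1 with 2 to 42. HAS2 had 0 to 61 counts, TNFAIP6 0 to 45 and INHA 0 to 4. Of the 24 markers tested edgeR called 0 and DESeq2 called 1, PTGS2, higher in females. In such pooled embryos fewer cells of a type and less RNA per cell cannot be told apart.

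Of the 43 genes, 38 passed the filter on low counts and were tested among 12802 genes. The other 5 were ACACB, the mitochondrial form of acetyl-CoA carboxylase, with 0 to 20 counts per library, ACSL5 with 0 to 31, the hormone-sensitive lipase LIPE with 1 to 77, and the nuclear receptors PPARA with 0 to 9 and PPARG with 0 to 13. LIPE exceeded 3 counts in 9 libraries and reached 3.73 CPM in Male 5 against at most 1.10 in the others. ACSL5 exceeded 3 counts in 6 libraries, PPARG in 5, ACACB in 4 and PPARA in 2.

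**Figure D1:**
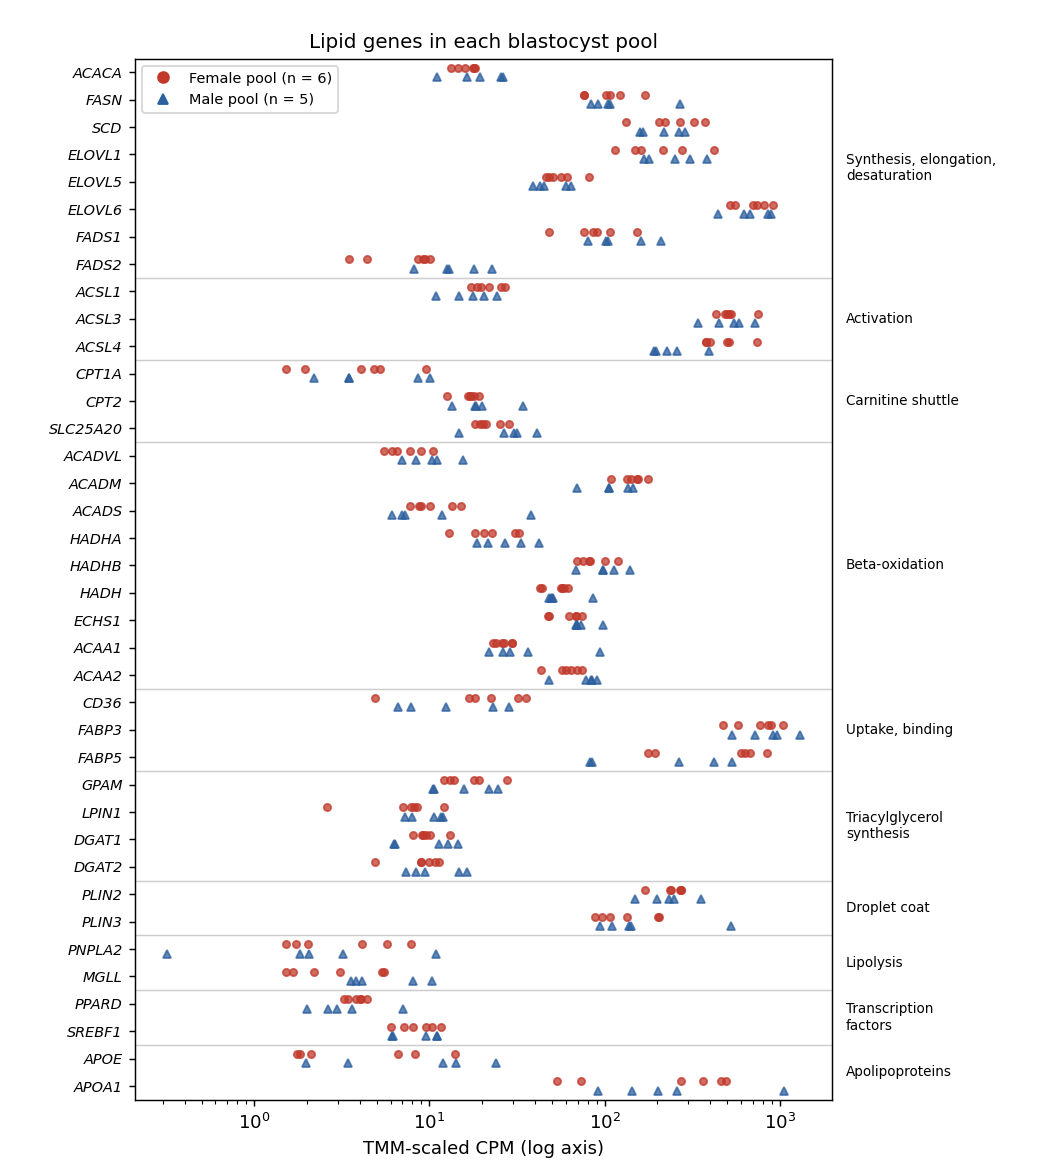
TMM-scaled CPM (log axis) of the 38 tested genes, grouped by role, with 1 circle per female pool (n = 6) and 1 triangle per male pool (n = 5). The groups overlapped for all 38 genes, and the lone triangle far to the right in PLIN3, ACAA1 and ACADS is Male 5.

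One of the 38 tested genes, ACSL4, was called sex-biased at FDR < 0.1 and Fold Change > 1.5, against 1.91% of all 12802 tested genes (245 genes). It was higher in females. Among the 37 autosomal genes 0 were called in edgeR, against 0.707% of all autosomal genes, and 3 of the 37 (FADS2, MGLL and APOE) had an unadjusted p under 0.05. DESeq2 likewise called ACSL4 (FDR 0.0147) and no other of the 38. Counting ACSL4, 4 of 38 reached an unadjusted p under 0.05, against 13.2% of all tested genes. For 0 of the 38 did the 6 female and 5 male values separate without overlap, against 3.31% of all tested genes. Higher in males were 23 of the 38 and higher in females 15. Over all tested genes 50.5% were higher in males, and over autosomal ones 52.4%. The median of the 38 log2 fold changes (male minus female throughout) was 0.17, against 0.01 over all tested genes and 0.02 over autosomal ones. Between pools of the same sex the median deviation of the members had an SD of 0.18 on the log2 scale.

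**Figure D2:**
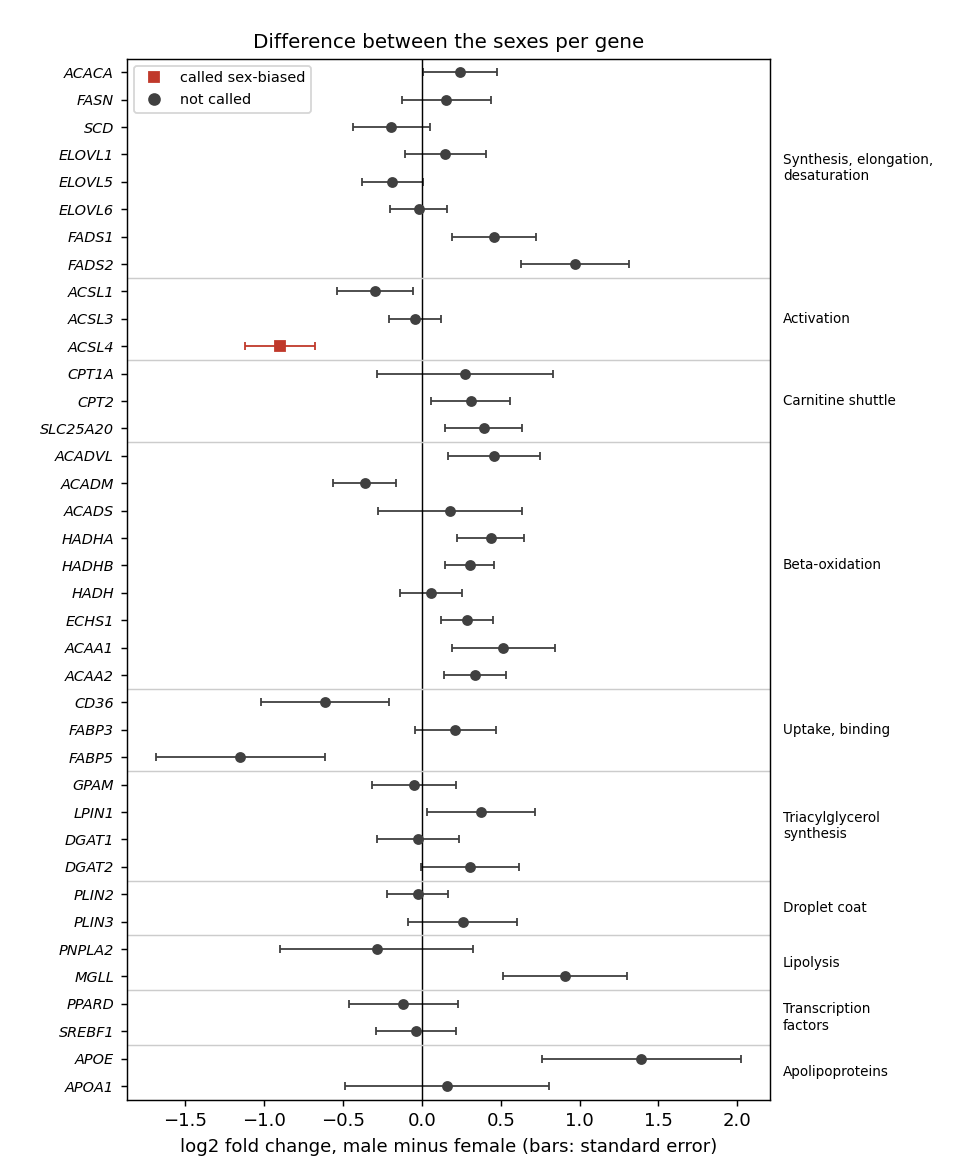
log2 fold change between the sexes (male minus female) for each of the 38 tested genes, by role, with bars for the standard error of the edgeR fit over 6 female and 5 male pools. ACSL4 at -0.90 is the called gene, and FABP5 and APOE lie farther from 0 with wider bars.

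Fatty acid activation was the role with the called gene. ACSL4 (chromosome X, 58032529 to 58110133, ARS-UCD2.0) codes for the acyl-CoA synthetase that prefers arachidonic acid and other polyunsaturated chains. Female 1 to 6 had 381, 398, 379, 496, 737 and 510 CPM, and Male 1 to 5 had 195, 260, 394, 228 and 192. Each male pool but Male 3 lay below every female pool, and Male 3 exceeded Female 1 and Female 3. The means were 483 ± 137 (SD, n = 6) in females and 254 ± 83.3 (SD, n = 5) in males, a 1.87-fold difference (log2 fold change -0.90, SE 0.22, edgeR FDR 0.0873). Within the 3 library numbers, the first digit of the library names that served as the block, the difference was -0.79, -0.14 and -1.55 on the log2 scale. Library numbers 1 and 3 held 2 female and 2 male pools each. Library number 2 held 2 female pools and 1 male pool, Male 3, so its values rest on that pool for every gene. The call was lost in 9 of the 11 fits that left out 1 library, with an edgeR FDR of up to 0.192, and was kept without Female 3 or without Male 3. With a block for the full library name it was lost as well, at an edgeR FDR of 0.157. The log2 fold change itself was -0.93 with that block and between -1.17 and -0.74 with 1 library left out.

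ACSL4 was the single X-linked gene of the 43. Of 476 tested X-linked genes 27.7% were called female-biased, their median log2 fold change was -0.85, and 46.6% had a lower value than ACSL4, so its difference lay near the median of X-linked genes. A transcribed pseudogene, LOC781022, overlaps 934 bases of ACSL4 and held 3592 counts over the 11 libraries against 50707 for ACSL4, and reads shared between them could have been split. The other tested synthetases were autosomal. ACSL3, the synthetase found on droplets and the endoplasmic reticulum, had 435 to 750 CPM in females and 340 to 719 in males (log2 fold change -0.04, SE 0.17, edgeR FDR 0.942). ACSL1, which serves both oxidation and storage, had 17.3 to 27.0 CPM in females and 10.9 to 24.2 in males (log2 fold change -0.30, SE 0.24, edgeR FDR 0.651).

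**Figure D3:**
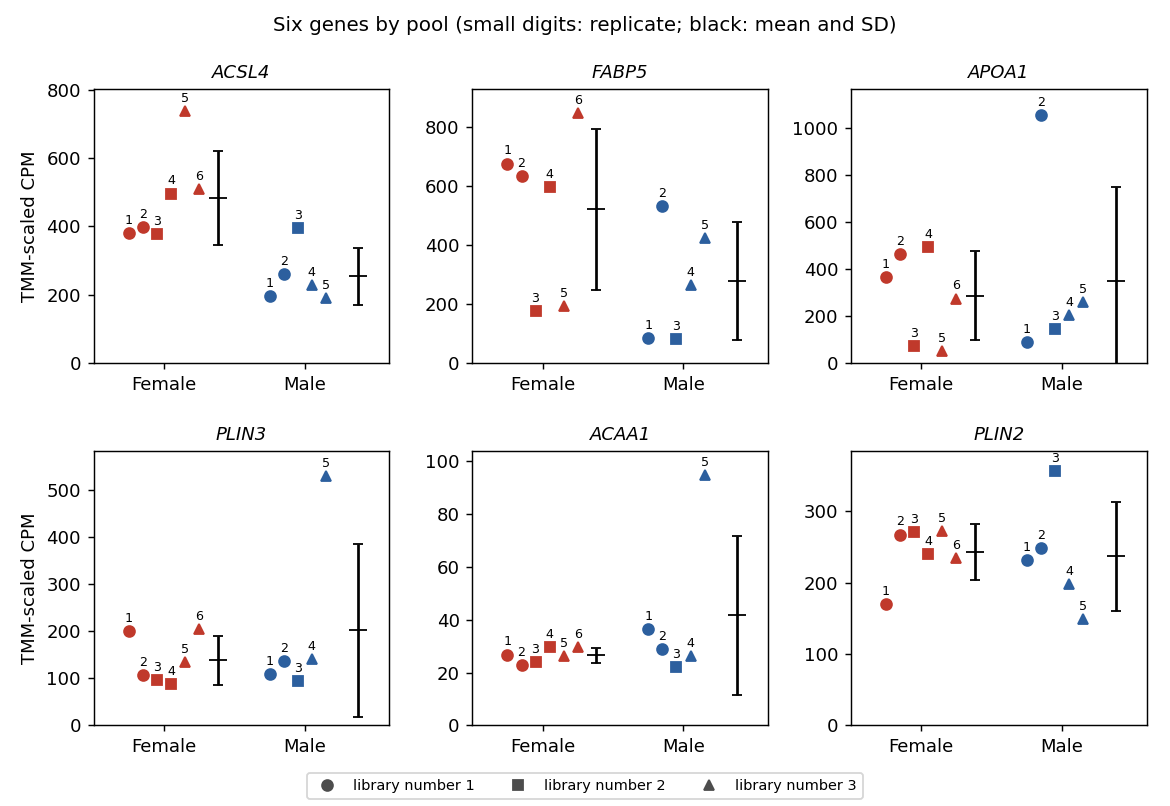
TMM-scaled CPM of ACSL4, FABP5, APOA1, PLIN3, ACAA1 and PLIN2 in each pool, with digits for the replicate, symbols for the library number and black bars for the mean and SD (6 female, 5 male pools; the lower end of the APOA1 male bar is cropped at 0). Male 5 reached 530 CPM in PLIN3 and 94.7 in ACAA1, and Female 3, Female 5, Male 1 and Male 3 were the lowest pools for both FABP5 and APOA1.

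Genes of uptake and binding held the largest difference toward females among the 38, in FABP5. FABP5, a fatty acid binding protein of epithelial cells, had 675, 634, 177, 597, 194 and 846 CPM in Female 1 to 6, and 84.6, 531, 82.9, 264 and 423 in Male 1 to 5. Both sexes held low and high pools, and the ranges overlapped. Means were 520 ± 273 (SD, n = 6) and 277 ± 200 (SD, n = 5), with a log2 fold change of -1.15 (SE 0.54) that did not pass the test (edgeR FDR 0.383). Within library numbers it was -1.62, -1.97 and -0.28. The fatty acid carrier CD36 had a lowest, median and highest level of 4.87, 20.2 and 35.4 CPM in females, and 7.86, 28.5, 6.63, 12.4 and 23.2 in Male 1 to 5. Its difference was -0.62 on the log2 scale (SE 0.41, edgeR FDR 0.564), with -0.62, -0.50 and -0.73 within library numbers. FABP3, the heart-type binding protein, ran from 474 to 1044 CPM in females and from 534 to 1309 in males (log2 fold change 0.21, SE 0.26, edgeR FDR 0.778).

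Apolipoproteins, which carry lipid outside the cell, had the largest residual SD between pools among the 38. APOA1, the main protein of high-density lipoprotein, had 366, 464, 73.3, 492, 53.1 and 275 CPM in Female 1 to 6 and 91.5, 1055, 144, 203 and 259 in Male 1 to 5. Its highest pool was 19.9 times its lowest, the highest being a male pool and the lowest a female pool. Means were 287 ± 190 (SD, n = 6) and 350 ± 399 (SD, n = 5), with a log2 fold change of 0.16 (SE 0.65, edgeR FDR 0.948) that turned to -0.61 without Male 2. APOE, a ligand of lipoprotein receptors, had 1.83, 8.25, 6.61, 14.0, 2.10 and 1.76 CPM in Female 1 to 6 and 1.99, 24.1, 14.2, 3.42 and 12.0 in Male 1 to 5. The 3 highest pools and the 3 lowest were each drawn from both sexes. With means of 5.76 ± 4.90 (SD, n = 6) and 11.1 ± 8.97 (SD, n = 5), its log2 fold change was 1.39 (SE 0.63, edgeR FDR 0.369). DESeq2 with the library number as block gave it an FDR of 0.168. The study reports APOE as sex-biased for the gene and for its abundant isoform, which was higher in males. Its gene test was DESeq2 with the collection week as a covariate, and the cause of the difference was not tested. APOA1 overlaps 287 bases of APOA4 and 2830 of LOC107133155, which together were near 0 beside it (37 and 36 counts against 39786 over all libraries).

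The spread between pools of 1 sex and library number, as a residual SD on the log2 scale, was 1.41 for APOA1, 1.26 for APOE and 1.13 for FABP5, with PNPLA2 between the latter pair, which placed these 4 at or above the 91.4th percentile of all tested genes. At the other end HADHB had 0.22 and ECHS1 0.23, at the 9.95th and 11.3th percentiles.

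FABP5 and APOA1 had the same 4 lowest pools, Female 3, Female 5, Male 1 and Male 3, a pattern picked after the values were seen. FABP5 had 82.9 to 194 CPM in these 4 and 264 to 846 in the other 7, and APOA1 had 53.1 to 144 against 203 to 1055. The same 4 were the lowest for 201 of the 12802 tested genes (1.57%). Of the 10 trophectoderm markers 1 shared them, TFAP2A, at 2.25 to 5.46 CPM against 5.60 to 27.5, and the other 9 did not. Summed trophectoderm markers came to 7879 to 13447 CPM in the 4 pools and 11469 to 36145 in the other 7, and the part of trophectoderm content in this pattern was not tested.

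Synthesis, elongation and desaturation genes showed no called difference, with 5 of 8 tested higher in males and a median log2 fold change of 0.15. FADS2, the delta-6 desaturase at the first step of making long polyunsaturated fatty acids, had 10.1, 9.44, 3.49, 9.21, 4.40 and 8.56 CPM in Female 1 to 6 and 12.6, 17.9, 12.9, 8.18 and 22.9 in Male 1 to 5. Each male pool but Male 4 lay above every female pool. With means of 7.54 ± 2.84 (SD, n = 6) and 14.9 ± 5.63 (SD, n = 5), its log2 fold change of 0.97 (SE 0.34) had an edgeR FDR of 0.242 and so was not called, and within library numbers it was 0.61, 1.16 and 1.14. FADS1, the delta-5 desaturase beside it on chromosome 29, had 48.0 to 153 CPM in females and 80.8 to 208 in males (log2 fold change 0.46, SE 0.26, edgeR FDR 0.499), with -0.17, 0.75 and 0.76 within library numbers. The annotated genes overlap by 677 bases, and FADS1 held 16195 counts over all libraries against 1612 for FADS2, so reads in the shared stretch are of uncertain origin. ELOVL6, which lengthens palmitate, had 522 to 910 CPM in females and 442 to 889 in males (log2 fold change -0.02, SE 0.18, edgeR FDR 0.980).

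Among the other synthesis genes, the acetyl-CoA carboxylase ACACA ran from 11.04 to 26.3 CPM over all pools, the stearoyl-CoA desaturase SCD from 132 to 373, and the elongases ELOVL1 and ELOVL5 from 115 to 421 and from 38.8 to 81.9. The fatty acid synthase FASN lay between 75.9 and 171 CPM in 10 pools and at 269 in Male 5. Female 1 was the highest of all 11 pools for SCD, ELOVL1, ELOVL5 and ELOVL6, and Female 3 was the lowest for FASN, SCD, ELOVL1, FADS1 and FADS2.

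The carnitine shuttle, which carries activated fatty acids into mitochondria, had all 3 of its genes higher in males and none called in edgeR, with 0 of 3 at an unadjusted p under 0.05. The carrier SLC25A20 had 18.3, 20.2, 25.4, 19.4, 28.3 and 21.2 CPM in Female 1 to 6 and 31.5, 30.5, 41.2, 26.7 and 14.7 in Male 1 to 5, so the male group held both the highest values and the lowest. Its log2 fold change was 0.39 (SE 0.24, edgeR FDR 0.534), and 0.59 without Male 5 (edgeR FDR 0.143). CPT2, on the inner membrane, had 12.6 to 19.2 CPM in females and 13.5 to 34.3 in males (log2 fold change 0.31, SE 0.25, edgeR FDR 0.658), and 0.03 without Male 5. CPT1A, the entry enzyme of the outer membrane, ran from 1.52 to 10.1 CPM over all pools.

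Beta-oxidation genes were higher in males in 8 of 9 cases, by 0.30 in the median on the log2 scale, and none was called in edgeR (0 of 9 also at an unadjusted p under 0.05). Without Male 5, ACADS and HADH turned lower in males (-0.49 and -0.11) and ACAA1 fell from 0.52 to 0.07. In that fit ACADVL fell to 0.26, ECHS1 to 0.22 and HADHA to 0.42. HADHB rose there to 0.40 and ACAA2 to 0.47, while ACADM stayed lower in males at -0.20. HADHA and HADHB code for the subunits of the mitochondrial trifunctional protein and lie 299 bases apart on chromosome 11. HADHA had 12.9, 20.4, 30.7, 32.6, 18.3 and 22.7 CPM in Female 1 to 6 and 33.3, 18.7, 42.4, 21.5 and 26.8 in Male 1 to 5. The ranges overlapped between 18.7 and 32.6 CPM (log2 fold change 0.44, SE 0.21, edgeR FDR 0.403). HADHB had 69.3 to 120 CPM in females and 68.4 to 140 in males (log2 fold change 0.30, SE 0.16, edgeR FDR 0.440). The difference was above 0 within each library number for both genes, at 0.62, 0.42 and 0.24 for HADHA and at 0.32, 0.36 and 0.21 for HADHB. ACADM, the medium-chain acyl-CoA dehydrogenase, was the gene of this role that was higher in females, with 109 to 176 CPM against 69.7 to 144 in males (log2 fold change -0.36, SE 0.20, edgeR FDR 0.475). The very-long-chain dehydrogenase ACADVL ran from 5.50 to 15.6 CPM over all pools, with Male 5 at the top.

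Triacylglycerol synthesis was represented by GPAM, DGAT1, DGAT2 and LPIN1, and none was called in edgeR (0 of 4 at an unadjusted p under 0.05). GPAM, the mitochondrial acyltransferase of the first step, had 12.1 to 27.8 CPM in females and 10.4 to 24.7 in males (log2 fold change -0.05, SE 0.27, edgeR FDR 0.964). LPIN1, a phosphatidate phosphatase, had 2.60 to 12.0 CPM in females and 7.28 to 11.9 in males (log2 fold change 0.37, SE 0.34, edgeR FDR 0.693). DGAT2, one of the enzymes of the last step, had 4.91 to 11.3 CPM in females and 7.36 to 16.4 in males (log2 fold change 0.30, SE 0.31, edgeR FDR 0.729). The other, DGAT1, ran from 6.31 to 14.6 CPM over all pools and shares 134 bases with HSF1.

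The 2 droplet coat genes were higher in 1 sex each, by little against their errors. PLIN2, the perilipin bound to droplets in most cells, had 170, 268, 272, 241, 273 and 235 CPM in Female 1 to 6 and 233, 249, 356, 198 and 148 in Male 1 to 5. The male pools held both its highest and its lowest value around nearly equal means, 243 ± 39.4 (SD, n = 6) in females and 237 ± 76.9 (SD, n = 5) in males (log2 fold change -0.03, SE 0.19, edgeR FDR 0.973). PLIN3, a perilipin that moves between cytosol and young droplets, had 200, 108, 97.1, 87.6, 134 and 205 CPM in Female 1 to 6 and 110, 137, 94.7, 141 and 530 in Male 1 to 5. Its highest pool, Male 5, was the lowest for PLIN2. The means of PLIN3 were 139 ± 51.9 (SD, n = 6) and 202 ± 184 (SD, n = 5), and its log2 fold change of 0.26 (SE 0.34, edgeR FDR 0.803) turned to -0.20 without Male 5.

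Of the lipases that empty the droplet, PNPLA2, which removes the first fatty acid, was the more variable between pools. Its lowest, median and highest levels were 1.51, 3.07 and 7.81 CPM in females, and Male 1 to 5 had 3.23, 0.317, 2.06, 1.83 and 10.95 (log2 fold change -0.29, SE 0.61, edgeR FDR 0.890). The value in Male 2 stood at the level that 3 counts give. MGLL, the monoacylglycerol lipase of the last step, had 5.33, 5.54, 1.67, 1.51, 2.20 and 3.08 CPM in Female 1 to 6 and 3.56, 8.03, 4.12, 3.81 and 10.3 in Male 1 to 5. Its 2 highest pools were male and its 4 lowest female, with a log2 fold change of 0.91 (SE 0.40) that did not pass the test (edgeR FDR 0.351) and with -0.02, 1.29 and 1.22 within library numbers.

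Neither of the 2 tested transcription factors was called in edgeR, and neither reached an unadjusted p under 0.05. PPARD, a nuclear receptor for fatty acids, had 3.26 to 4.40 CPM in females and 2.01 to 7.03 in males (log2 fold change -0.12, SE 0.34, edgeR FDR 0.923). SREBF1, the activator of fatty acid synthesis genes, had 6.04 to 11.7 CPM in females and 6.12 to 11.05 in males (log2 fold change -0.04, SE 0.26, edgeR FDR 0.973). The interval of 1 SE around either difference included 0.

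Male 5, the library that stood apart, held the extreme value of 25 of the 38 genes. It was the highest of the 11 pools for 16 (42.1%, against 24.9% of all tested genes) and the lowest for 9 (23.7%, against 26.8%). The genes named in the rest of this account were picked after their values were seen. Highest in Male 5, besides PLIN3 at 2.59 times the next pool, were the thiolase ACAA1 of peroxisomes (94.7 CPM against 22.0 to 36.6 in the others) and the short-chain dehydrogenase ACADS (38.1 against 6.12 to 15.2). The hydroxyacyl-CoA dehydrogenase HADH was at 86.1 CPM against 42.6 to 61.4 and the enoyl-CoA hydratase ECHS1 at 98.2 against 47.3 to 74.6. Lowest in Male 5 were ELOVL6 at 442 CPM, ACSL3 at 340, ACADM at 69.7, HADHB at 68.4 and SLC25A20 at 14.7. Genes of beta-oxidation thus stood at both ends within this 1 library. The part of its lower gene number and of its higher keratin, CDX2 and DAB2 levels in these values was not tested.

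Without Male 5, 23 of 38 were again higher in males, but 8 genes changed sign. FASN, ACADS, HADH and PLIN3 turned lower in males and ELOVL6, ACSL3, GPAM and PLIN2 higher, and the median log2 fold change of the 38 was 0.05. In that fit 0 were called in edgeR, against 2.81% of all tested genes, and 6 had an unadjusted p under 0.05 (FADS2, ACSL4, SLC25A20, HADHB, ACAA2 and FABP5), which is 15.8% against 16.2% of all tested genes. ACSL4 then had an edgeR FDR of 0.110. ACADS moved from 0.18 to -0.49 and FASN from 0.16 to -0.21 on the log2 scale. ACAA2, a mitochondrial thiolase, was the 1 gene of the 38 whose sexes separated without that library, at 78.2 to 90.5 CPM in the 4 male pools and 43.1 to 74.1 in the 6 female pools. Of all genes tested in that fit 5.23% separated, and ACAA2 had a log2 fold change of 0.47 with an edgeR FDR of 0.188.

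**Figure D4:**
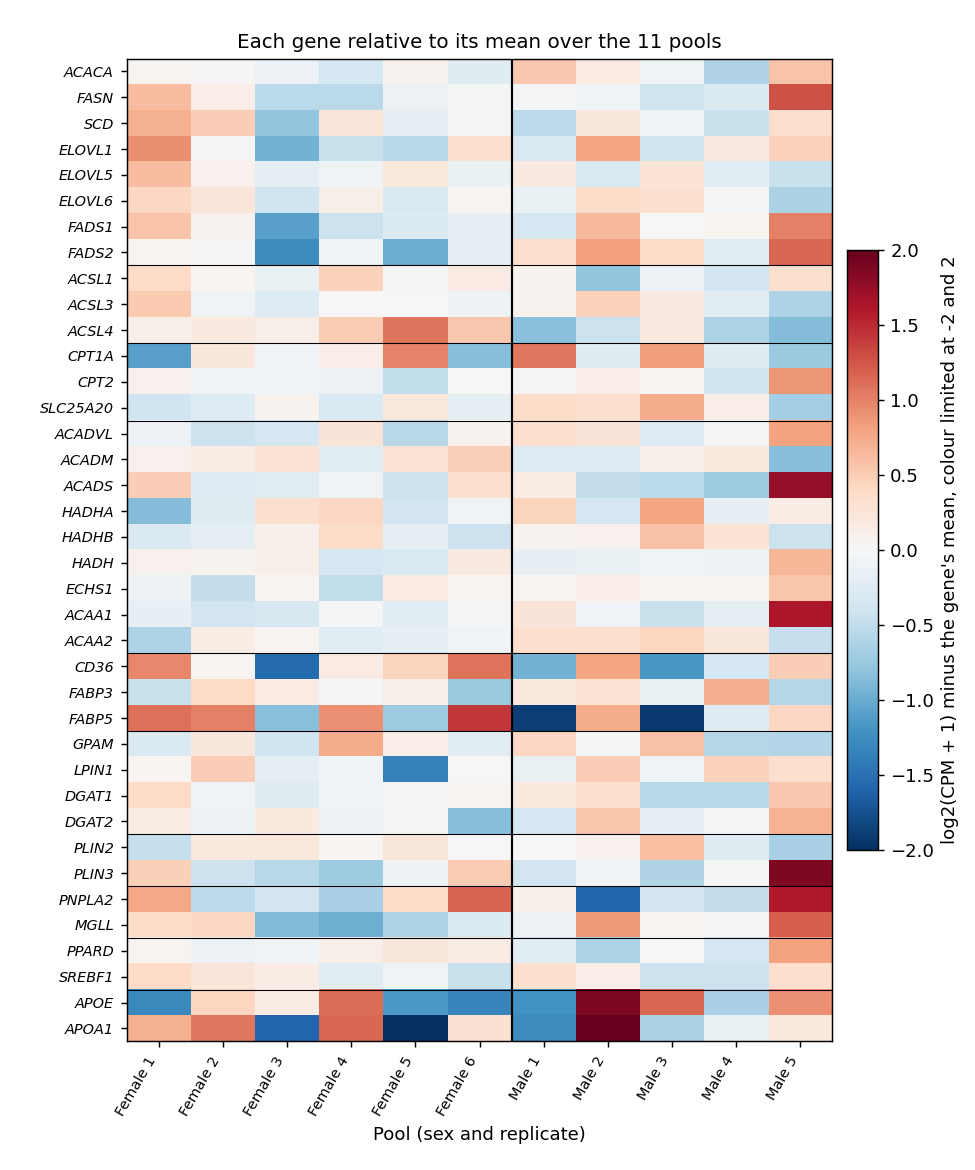
Level of each of the 38 tested genes in each of the 11 pools as log2(CPM + 1) minus the gene's mean over the pools (colour, limited at -2 and 2), with genes by role and females left of the line. The Male 5 column holds 16 of the highest and 9 of the lowest values, and the FABP5 and APOA1 rows share their 4 lowest pools.

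A wider list of 189 other lipid genes in 8 groups was read in the same fit. Of these, 185 were in the table, 145 were tested and 0 were called in edgeR, against 1.91% of all tested genes. At an unadjusted p under 0.05 were 14 of the 145, against 13.2% of all tested genes. DESeq2 called 3 of the list and 655 genes over the whole table. The share of genes called in that fit was not taken, so no excess or lack in the list is read from the 3. The largest imbalance of direction lay in the peroxisomal genes, of which 17 of 22 were higher in females (median -0.22) and none was called. Other glycerolipid synthesis genes had 14 of 19 higher in males (median 0.30), and other acetyl-CoA, elongation and desaturation genes 12 of 16 (median 0.23). The remaining 5 groups had medians between -0.18 and 0.04. Among them, other mitochondrial beta-oxidation genes had 15 of 27 higher in males (median 0.04).

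The smallest edgeR FDR of the wider list, 0.111, belonged to HSD17B10, an X-linked dehydrogenase of mitochondrial beta-oxidation. Female pools averaged 413 ± 59.8 CPM (SD, n = 6) and male pools 281 ± 56.2 (SD, n = 5). Its log2 fold change was -0.59 (SE 0.16), and -0.64, -0.74 and -0.46 within library numbers. Also X-linked were ACOT9 at -0.39 (edgeR FDR 0.392) and MBTPS2 at -0.60 (edgeR FDR 0.366), neither of which was called. Smallest p in their groups among autosomal genes were SPART, a droplet protein, at -0.55 (edgeR FDR 0.133), the transcription factor MLX at 0.41 (edgeR FDR 0.269), the peroxisome assembly factor PEX3 at -0.47 (edgeR FDR 0.362) and PCYT1A of phosphatidylcholine synthesis at -0.44 (edgeR FDR 0.368). Mitochondrial acetyl-CoA synthetase ACSS1 was at 0.70 (edgeR FDR 0.381), the lipoprotein clusterin CLU at -2.06 (edgeR FDR 0.438) and the fatty acid transporter SLC27A1 at -0.48 (edgeR FDR 0.467). None of these 8, HSD17B10 included, passed the edgeR test of the main fit.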

How the data were processed

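Per the labels and the study's methods, the authors used fastp 0.20.0 for trimming and STAR 2.7.10b (at most 3 mismatches) for alignment to ARS-UCD2.0, and deposited raw counts per gene from featureCounts, whose strand setting is not given in the sources used here. Libraries were amplified without molecular identifiers, so CPM floors cover counting error only. From these counts 12802 genes passed edgeR's filterByExpr by sex (minimum count 10). Sexes were compared with edgeR 4.0.16 (R 4.3.3) by the quasi-likelihood test with TMM factors and the first number of the library name (1 to 3) as a block, since the labels give no collection week. FDR is Benjamini-Hochberg over all tested genes, SE is the size of the log2 fold change over the square root of F, and a call needs FDR < 0.1 and Fold Change > 1.5. The fit was also run on simulated counts that held no library number effect and no outlying pool. That run therefore does not show how the fit behaves on these data. Alternatives included DESeq2 1.42.0, other blocks, scalings and filters, and leaving out each library. Named genes are called members, the 2 with the smallest p and the 1 with the highest mean CPM in each role, and in each wider group the smallest p; others get ranges. Members and lists were chosen with earlier results of these data known. Symbols of all 43 genes matched RefSeq, of which 18 overlap another annotated gene. The 4-cell Iso-seq sample was not used here. The values of 1 gene of the wider list are not reported here.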

Additional observations from a re-analysis of the deposited data

Results flagged for a closer look

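In 12 of 76 groups (38 genes, 2 sexes) 1 pool stood far from the others of its sex by Dixon's ratio. The cutoff gives about 1 in 20 for independent, normally distributed values, while these CPM values share the same pools in every gene. The share over all tested genes was not taken, so no excess in these genes is read from the count. Male 5 gave 7 of the 12, each as the highest male pool, at 269 CPM for FASN, 38.1 for ACADS, 86.1 for HADH, 98.2 for ECHS1, 94.7 for ACAA1, 530 for PLIN3 and 10.95 for PNPLA2. The other 5 were spread over 4 pools. Female 1 was the highest female pool for ACSL3 at 750 CPM (435 to 525 in the others) and the lowest for PLIN2 at 169.7 CPM (235 to 273). Female 5 was the highest for ACSL4 at 737 CPM against 379 to 510, and without it the log2 fold change of ACSL4 was -0.74. Female 6 was the lowest for DGAT2 at 4.91 CPM against 8.90 to 11.3. Male 2 was the highest male pool for APOA1 at 1055 CPM against 91.5 to 259.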

How the results depend on the processing

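The call of ACSL4 changed with the setting, while its log2 fold change stayed below 0 under every alternative run. Members called numbered 0 with a replicate block by both library numbers, with a replicate block by title number, at FDR < 0.05 and with the fold change tested by glmTreat, 4 (ACSL4, FABP5, APOE and FADS2) with no filter beyond 1 count per gene, and 0 to 1 when 1 library was left out. All genes called numbered 132 with the block by title number, 655 by DESeq2, 743 without that filter, 125 at FDR < 0.05, 62 by glmTreat, and 95 (without Male 3) to 364 (without Male 5) when 1 library was left out. Of the wider lipid list 3 were called by DESeq2, 1 with TMM factors from autosomal genes, 2 with library totals, 6 without that filter, 1 with a stricter filter (minimum count 30), and 0 to 1 when 1 library was left out. The cause of these moves was not tested. Genes tested differed between settings and the share called was not taken for each, so these counts are not compared with a background. Of the 5 pairs of pools sharing both numbers 3 correlated over 0.1, with a median of 0.32 and a range of -0.18 to 0.45, against a median of -0.04 and a range of -0.44 to 0.36 for the other 25 pairs. Among the other pairs, those sharing only the first number, the block of the main fit, correlated at 0.008, -0.08, 0.245, -0.12 and -0.06. In neither set did every pair correlate over 0.1, so these correlations do not favour the block of the main fit. The first number was kept as the main block and pairing by both numbers as an alternative only. In that alternative ACSL4 was not called (edgeR FDR 0.157), and which block is right was not tested.

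Direction turned for 10 of the 25 named genes. GPAM was at 0.068 with the block by both numbers. Leaving out 1 library gave log2 fold changes of -0.16 to 0.053 for ACSL3, -0.61 to 0.58 for APOA1, -0.18 to 0.080 for ELOVL6, -0.065 to 0.35 for FABP3, -0.20 to 0.075 for GPAM, -0.20 to 0.11 for PLIN2, -0.20 to 0.49 for PLIN3, -0.85 to 0.12 for PNPLA2, -0.41 to 0.0075 for PPARD and -0.22 to 0.10 for SREBF1. The median over the members kept its sign, 0.05 to 0.22 when 1 library was left out. Library totals moved the median of all genes from 0.01 to -0.10. Depth limits the lowest genes, since 3 counts gave up to 0.413 CPM.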
